A study of Mus musculus with 10 samples.

Results

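The forkhead transcription factors were followed in the mouse cerebral cortex after deletion of Usp7 from glutamatergic neurons. The members were all protein-coding genes named Fox with a letter from a to s and a digit, except 5 genes of the Foxo and Foxp subfamilies that were not analysed here. This gave 39 of the 55487 genes in the expression table, taken without an expression minimum. Total RNA was measured in 5 Usp7 cKO; Trp53+/- and 5 Usp7 WT; Trp53+/- animals at 18 days of age. The conditional knockout (cKO) came from crossing Usp7 fl/fl mice with NEX-cre mice, in which Cre is made in glutamatergic neurons. Other cell types of the tissue keep Usp7, and animals of both groups carry a single intact Trp53 allele. USP7 removes ubiquitin from other proteins, among them MDM2, the ubiquitin ligase of p53. The comparison asks which forkhead genes differed between the genotypes in level, and in which exons or introns were used.

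Forkhead proteins bind DNA through a winged-helix domain of which one helix lies in the major groove. FoxA proteins can bind closed chromatin and open it, and several other members drive the formation of a single tissue. In the forebrain, Foxp1 acts in cortical and striatal neurons and Foxj1 switches on the motile cilia of ependymal cells. The vessel wall and the meninges depend on Foxc1, Foxf2 and Foxq1, while many other members belong to tissues outside the brain.

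The bases that code for the core of the DNA-contacting helix are shown for the 4 members that passed the test between genotypes. They were read from the GENCODE transcripts of GRCm38, 5′ to 3′, and capitals mark the bases that all 4 genes share.
Foxe1: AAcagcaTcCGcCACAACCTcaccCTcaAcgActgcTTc
Foxf1: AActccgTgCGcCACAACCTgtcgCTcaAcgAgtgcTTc
Foxm1: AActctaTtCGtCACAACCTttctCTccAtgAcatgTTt
Foxp4: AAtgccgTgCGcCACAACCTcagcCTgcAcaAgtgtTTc
Of these 39 bases 19 are the same in all 4 genes. Foxe1 and Foxf1 are the most alike of the 6 pairs, with 31 identical bases, and Foxm1 and Foxp4 the least alike, with 21.

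The total of exon bin counts was 42628526 to 51797145 in single libraries. In 2 libraries sex-linked transcripts went against the label. Usp7 cKO replicate 1 is labelled male but gave 116 TPM (transcripts per 1000000) for Xist and 0.0523 TPM for Ddx3y, and Usp7 WT replicate 2 is labelled female but gave 0.0478 TPM for Xist and 22.8 TPM for Ddx3y. For the called members, for exon usage and for some other members, results without both libraries are also given. List genes, neighbouring genes and members below the minimum are given with all 10 libraries only. The library identifiers run in genotype order, so that library order and genotype cannot be told apart. Usp7 itself held 31.6 to 40.9 TPM in Usp7 cKO and 48.3 to 61.9 TPM in Usp7 WT libraries. Markers of glutamatergic neurons, the labelled target of the deletion, were present in every library, and their 14 genes summed to 4756 to 5840 TPM in Usp7 cKO and 8052 to 9356 TPM in Usp7 WT. Of these 14, 10 were lower and 0 higher in Usp7 cKO (limma, adjusted p under 0.05), while 4.67% of all genes tested were lower. Fewer cells of a type and less RNA per cell cannot be told apart in such bulk samples.

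Together the 39 forkhead genes held 465 ± 16.5 TPM in Usp7 cKO and 450.3 ± 22.2 TPM in Usp7 WT (SD, n = 5 each), and the groups overlapped (437 to 477 TPM in Usp7 cKO, 427 to 484 TPM in Usp7 WT). Small and ribosomal RNA classes took 18.2 to 25.2% of all TPM in Usp7 cKO libraries and 15.1 to 24.5% in Usp7 WT libraries. Their part in the differences between libraries was not tested. The 9 most abundant members made up 89.4 to 91.3% of this sum in Usp7 cKO and 92.4 to 94.3% in Usp7 WT. In both groups Foxk2 was the most abundant member. Above a mean of 10 TPM lay 8 members, 15 lay between 0.5 and 10 TPM, and 16 lay below 0.5 TPM, a minimum that a gene needed to enter the test. Just inside that minimum were Foxr2 at 0.518 and Foxh1 at 0.734 TPM over all libraries, and just outside it Foxb2 at 0.285 and Foxd2 at 0.284 TPM. Foxe1 and Foxr2 reached it through Usp7 cKO, since their Usp7 WT means lay below 0.5 TPM. A called rise of such a gene was thus favoured by the minimum itself.

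**Figure D1:**
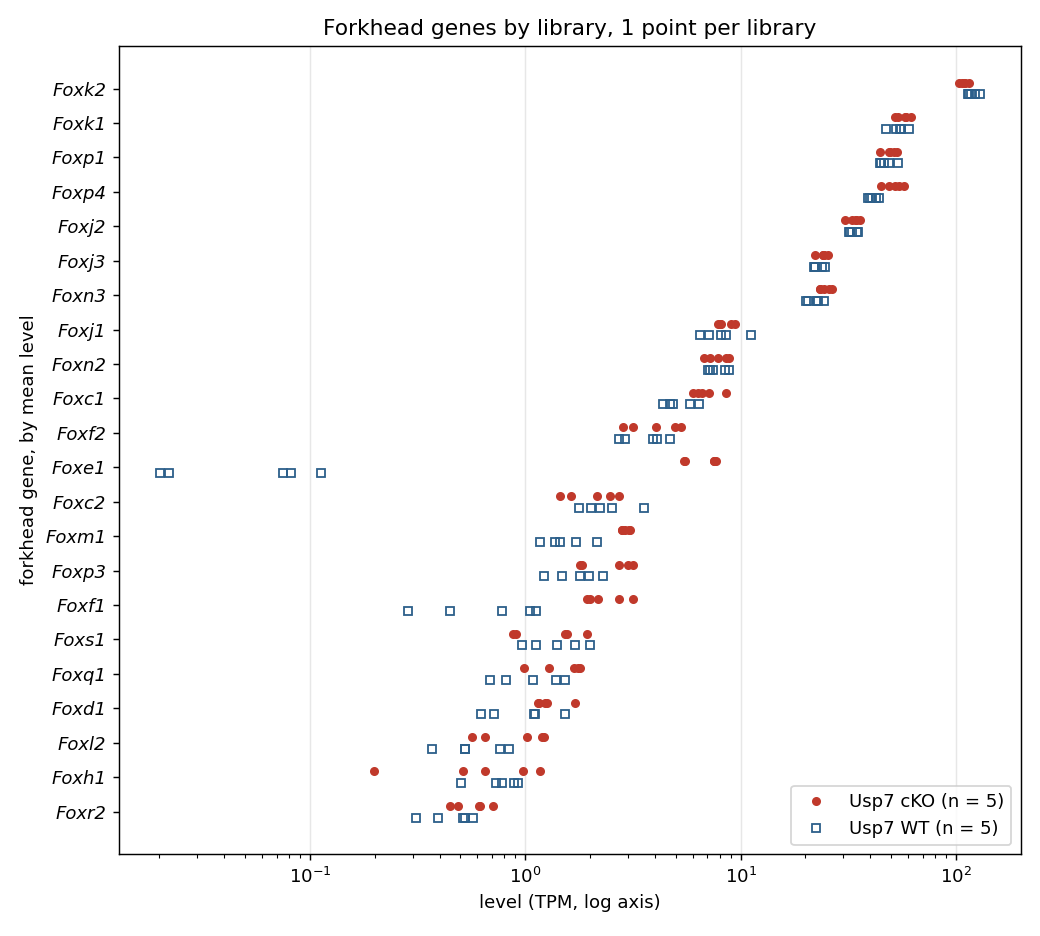
Level of 22 of the 23 forkhead genes that were tested, in TPM on a log axis, with 1 point per library and Usp7 cKO drawn above Usp7 WT for each gene. The groups overlap for most genes, while all Usp7 cKO points of Foxe1, Foxf1, Foxm1 and Foxp4 lie to the right of all Usp7 WT points.

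Of the 23 members tested, 4 were higher in Usp7 cKO and 0 were lower (limma on log2(TPM + 0.5), Benjamini-Hochberg adjusted p under 0.05 over 27580 genes). The 4 were Foxe1, Foxf1, Foxm1 and Foxp4. Across all genes tested 9.22% were called higher and 4.67% lower, against 17.4% of the members higher. Among protein-coding genes of like level, 14.7% of those between 0.5 and 10 TPM and 11.1% of those above 10 TPM were called higher. The members called higher numbered 3 of 15 in the lower range and 1 of 8 in the upper range, and one of the 3, Foxe1, passed the minimum through Usp7 cKO alone. The median log2 change was 0.12 over the 23 members and 0.062 over all genes tested. By edgeR on the exon bin counts summed per gene, which called 14.0% of genes higher and 13.9% lower, 5 of the 23 members were higher and 2 lower. Foxc1 was added by edgeR among the higher and Foxk2 among the lower members. On TPM values scaled with size factors (medians of ratios) limma called 4 members higher and 2 lower, again with Foxk2 among the lower. That setting called 5648 genes in all, against 3832 in the main fit.

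**Figure D2:**
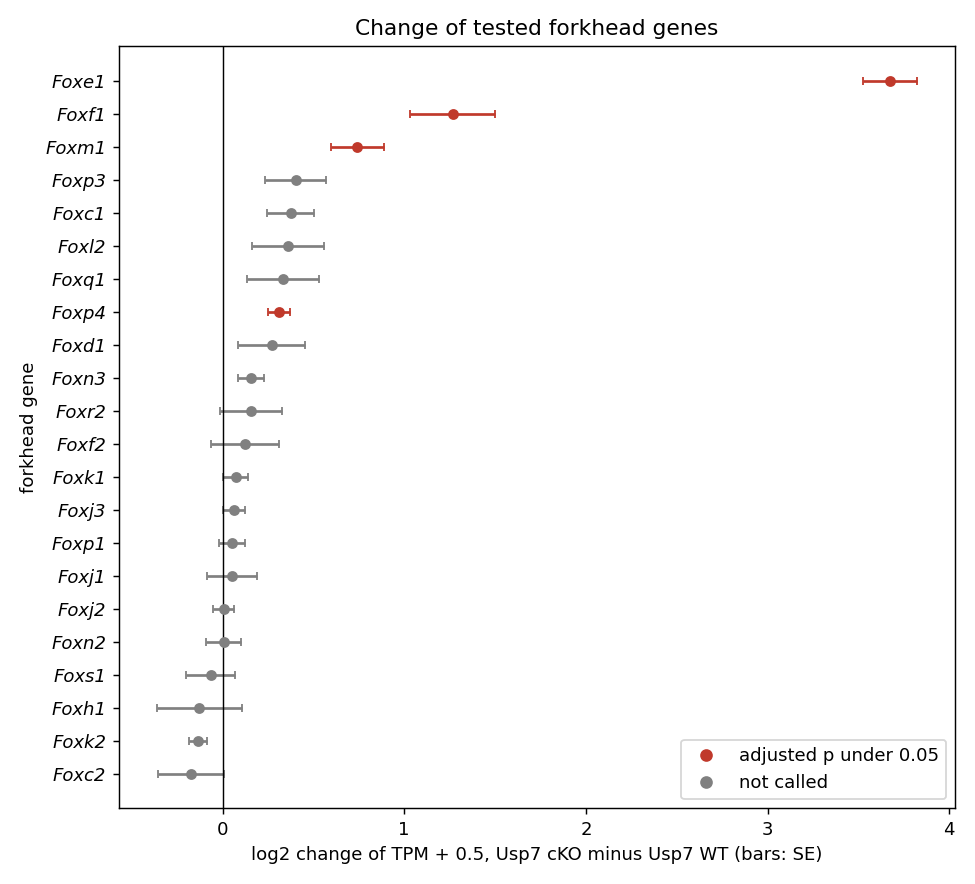
Log2 change of TPM + 0.5 for 22 of the 23 tested forkhead genes, Usp7 cKO minus Usp7 WT, with bars for the standard error. The 4 called genes are in red, from 0.31 for Foxp4 to 3.67 for Foxe1, and the uncalled genes drawn run from -0.17 to 0.40.

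Foxe1, the thyroid transcription factor also needed for palate formation, showed the largest change of any member. The gene (ENSMUSG00000070990) has a single exon on chromosome 4, 46343609 to 46346412, plus strand, GRCm38. Its level was 5.45, 7.52, 7.68, 7.498 and 5.54 TPM in the Usp7 cKO libraries, against 0.0223, 0.0817, 0.113, 0.0201 and 0.0754 TPM in the Usp7 WT libraries. The gene was thus near 0 in every Usp7 WT cortex, and even the lowest Usp7 cKO value lay far above the highest Usp7 WT value. In level it stood in place 12 of the 39 members in Usp7 cKO and in place 27 in Usp7 WT. The exon bin held 113, 161, 154, 188 and 127 reads in Usp7 cKO and 1, 2, 1, 1 and 2 reads in Usp7 WT. Scaled to the library totals, the ratio of the summed reads was 111, with an exact 95% interval of 53.6 to 277 that covers counting error only. The log2 change on the TPM + 0.5 scale was 3.67 (SE 0.1501, limma adjusted p = 4.81e-07), a scale on which the change of so low a gene is understated.

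An antisense gene at the same place differed too. Gm12446 lies on the minus strand, 46300007 to 46345515, and its first annotated exon lies within the Foxe1 exon. It averaged 3.42 ± 1.30 TPM in Usp7 cKO and 0.593 ± 0.192 TPM in Usp7 WT (SD, n = 5; log2 change 1.79, limma adjusted p = 0.00118). The Gm12446 exon 178 bases upstream of the Foxe1 start (46343339 to 46343431) held 4, 20, 16, 12 and 12 reads in Usp7 cKO and 0 reads in each Usp7 WT library. That is at least 22.3-fold higher in Usp7 cKO, with 3 counts over the group as the limit for Usp7 WT. The exon of Gm12446 inside Foxe1 (46345414 to 46345515) held 0 reads in all 10 libraries. Whether strand was used in the counting is not given in the sources used here, so reads of Foxe1 and of its antisense gene may have been mixed. The processed pseudogene Gm12447, 15.8 kb from Foxe1 and also within the span of Gm12446, averaged 3.45 ± 0.629 TPM in Usp7 cKO and 1.88 ± 0.230 TPM in Usp7 WT (log2 change 0.72, adjusted p = 0.00901). Of the 5 tested genes within 100 kb of Foxe1 these 2 were called. Trmo, a tRNA methyltransferase gene 30.1 kb away, averaged 4.06 TPM in Usp7 cKO and 4.85 TPM in Usp7 WT (adjusted p = 0.261).

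Of 12 genes for thyroid factors and hormone synthesis, the setting in which Foxe1 is best known, 5 reached the minimum and 0 were called in either direction. The median log2 change of these 5 was -0.0016. Slc5a5, the iodide transporter, had the smallest p and averaged 14.9 ± 0.899 TPM in Usp7 cKO and 14.1 ± 0.117 TPM in Usp7 WT (adjusted p = 0.454).

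Foxf1, a factor of lung and gut mesenchyme and a target of hedgehog signalling, was higher in Usp7 cKO on a low level. The gene (ENSMUSG00000042812) lies on chromosome 8, 121084386 to 121088144, plus strand. It held 1.997, 1.93, 2.72, 3.18 and 2.18 TPM in the Usp7 cKO libraries, against 0.776, 0.284, 0.447, 1.12 and 1.05 TPM in the Usp7 WT libraries. All Usp7 cKO values were above all Usp7 WT values, with a ratio of the means of 3.26. The bin counts summed to 40, 43, 53, 75 and 44 reads in Usp7 cKO and to 16, 8, 9, 27 and 19 reads in Usp7 WT. The log2 change on the TPM + 0.5 scale was 1.27 (SE 0.233, limma adjusted p = 0.00566).

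Genes around Foxf1 were not called. The long noncoding RNA gene Fendrr, which starts 1.28 kb away on the other strand, averaged 1.01 ± 0.357 TPM in Usp7 cKO and 0.870 ± 0.306 TPM in Usp7 WT (log2 change 0.14, adjusted p = 0.708). Foxc2, a mesenchymal and lymphatic factor 28.0 kb away, averaged 2.09 ± 0.540 TPM in Usp7 cKO and 2.43 ± 0.697 TPM in Usp7 WT (log2 change -0.17, adjusted p = 0.586). Foxl1, a factor of gut mesenchyme 39.8 kb away, was below the minimum with 0.201 TPM in Usp7 cKO and 0.197 TPM in Usp7 WT. Mthfsd, which lies between Foxf1 and Foxc2, averaged 12.3 TPM in Usp7 cKO and 11.5 TPM in Usp7 WT (adjusted p = 0.590). A p above the threshold does not show that their levels were the same.

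Of 15 hedgehog pathway genes, 14 were tested, 6 were higher and 0 lower in Usp7 cKO, with a median log2 change of 0.28. Over all genes tested 9.22% were called higher and 4.67% lower, and these shares apply to the other lists too. The lists were chosen with earlier results of these data known, so their counts do not test a pathway. Ihh, the Indian hedgehog ligand, averaged 6.90 ± 1.43 TPM in Usp7 cKO and 3.60 ± 0.558 TPM in Usp7 WT (log2 change 0.84, adjusted p = 0.00476). Gas1, a hedgehog co-receptor, averaged 15.0 TPM in Usp7 cKO and 10.9 TPM in Usp7 WT (log2 change 0.45), and Gli1, a transcription factor that hedgehog signalling induces, 2.54 TPM in Usp7 cKO and 1.44 TPM in Usp7 WT (log2 change 0.64). Smo and Cdon were also called. Foxf1 shares its samples with these genes, and a link between them was not tested.

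Foxm1, which drives genes of the G2 and M phases in dividing cells, was also higher. The gene (ENSMUSG00000001517) lies on chromosome 6, 128362967 to 128376146, plus strand. It held 3.02, 2.90, 2.82, 2.83 and 3.07 TPM in the Usp7 cKO libraries, against 1.17, 1.45, 1.38, 1.71 and 2.155 TPM in the Usp7 WT libraries. The Usp7 cKO libraries lay close together, with an SD of 0.115 TPM against 0.378 TPM in Usp7 WT, and all lay above Usp7 WT. The log2 change was 0.74 (SE 0.145, limma adjusted p = 0.00775), and 0.70 with an adjusted p of 0.0567 without both libraries of discordant sex. Exon usage did not pass the test in Foxm1 (4 bins, edgeR adjusted p = 1). Rhno1, which starts 0.056 kb away on the other strand, averaged 5.32 ± 0.513 TPM in Usp7 cKO and 4.76 ± 0.629 TPM in Usp7 WT (adjusted p = 0.441). Gm26770, antisense to Rhno1, was the only other called gene of 13 tested within 100 kb, with 1.59 TPM in Usp7 cKO and 0.954 TPM in Usp7 WT (log2 change 0.53, adjusted p = 0.0363). Tex52 overlaps the 3′ end of Foxm1 and averaged 1.97 TPM in Usp7 cKO and 1.49 TPM in Usp7 WT (adjusted p = 0.373).

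Genes that dividing cells use in G2 and M were counted beside it. Of 24 such genes 22 were tested, 2 were higher and 0 lower, with a median log2 change of 0.25. That share is not above the 9.22% of all genes tested that were called higher. Aurkb, a kinase of chromosome segregation, averaged 1.20 ± 0.159 TPM in Usp7 cKO and 0.645 ± 0.129 TPM in Usp7 WT (log2 change 0.57, adjusted p = 0.0192). Birc5, which encodes survivin of the same complex, averaged 1.29 TPM in Usp7 cKO and 0.694 TPM in Usp7 WT (log2 change 0.59, adjusted p = 0.0427). Top2a, the topoisomerase of dividing cells, averaged 1.89 TPM in Usp7 cKO and 1.28 TPM in Usp7 WT and was not called (adjusted p = 0.0818).

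Foxp4, a repressor of the Foxp subfamily made in cortical neurons and many epithelia, was the only abundant member that was called. The gene (ENSMUSG00000023991) lies on chromosome 17, minus strand. It held 48.7, 51.9, 54.3, 44.9 and 57.1 TPM in the Usp7 cKO libraries, against 40.9, 39.01, 40.1, 42.3 and 43.7 TPM in the Usp7 WT libraries. The groups did not overlap, although Usp7 cKO replicate 4 and Usp7 WT replicate 5 were close. The log2 change was 0.31 (SE 0.0613, limma adjusted p = 0.00803), and 0.27 with an adjusted p of 0.0553 without both libraries of discordant sex. In abundance Foxp4 stood in place 4 in Usp7 cKO and in place 5 in Usp7 WT, having changed places with Foxp1. Of 4 tested genes within 100 kb 0 were called. Among them Tfeb, a factor of lysosome genes, averaged 9.30 ± 1.26 TPM in Usp7 cKO and 7.48 ± 0.541 TPM in Usp7 WT (adjusted p = 0.0552). Gm15556, an antisense gene within the first intron of Foxp4, averaged 1.503 TPM in Usp7 cKO and 0.661 TPM in Usp7 WT (adjusted p = 0.0546).

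**Figure D3:**
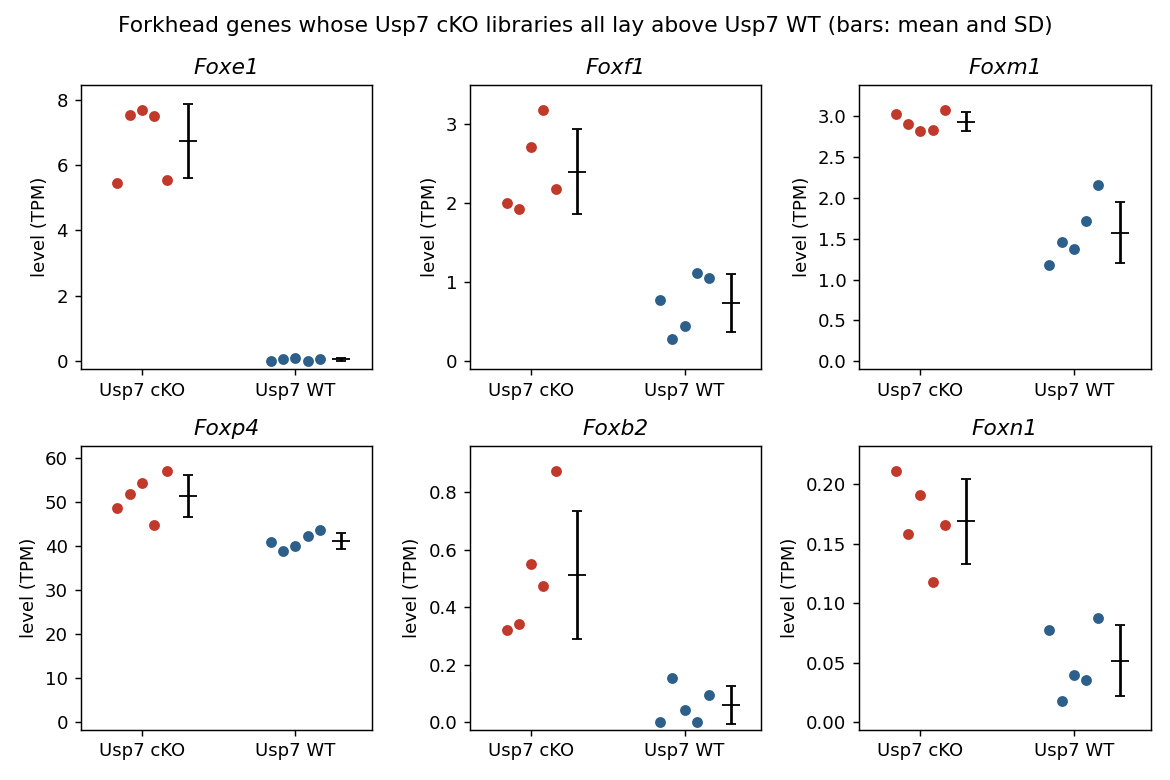
Level in TPM of the 6 forkhead genes whose Usp7 cKO libraries all lay above all Usp7 WT libraries, with 1 point per library and the mean and SD beside it. Foxe1, Foxb2 and Foxn1 lie near 0 in Usp7 WT, while Foxp4 differs by a ratio of 1.25 on a high level. Among protein-coding genes below the minimum 2.93% were separated in this way. The like share above the minimum, where Foxe1, Foxf1, Foxm1 and Foxp4 lie, was not counted.

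The rise of Foxp4 was unequal along the gene. Exon bins are stretches of exon whose reads were counted one by one, and usage is the change of a bin relative to the other bins of its gene. Of 14 members tested for exon usage Foxp4 was the only one called (30 bins, edgeR Simes test, adjusted p = 0.00217), against 2.85% of 13954 genes. The called bin was exon 4 of the 17-exon transcript, chr17:47880770-47880892, which is coding. It held 36, 38, 44, 38 and 53 reads in Usp7 cKO and 23, 10, 17, 18 and 13 reads in Usp7 WT, with no overlap. Its share of the gene's bin counts was 1.09 ± 0.108% in Usp7 cKO and 0.517 ± 0.155% in Usp7 WT (SD, n = 5), and its usage changed by 0.75 on the log2 scale (adjusted p = 0.000708). The authors' deposited table gives a log2 change of 1.08 for this bin. Next by p were a bin of exon 5 (47880263 to 47880339, log2 usage change 0.61, adjusted p = 0.0513) and one of exon 3 (47888125 to 47888150, log2 usage change 0.66, adjusted p = 0.0731). The authors' deposited table gives adjusted p-values of 0.0140 and 0.0159 for them.

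The sequence of exon 4 is shown because its use differed. Capitals mark the triplet cag, which occurs 13 times in its 123 bases.
Foxp4 exon 4, chr17:47880770-47880892, minus strand, GRCm38: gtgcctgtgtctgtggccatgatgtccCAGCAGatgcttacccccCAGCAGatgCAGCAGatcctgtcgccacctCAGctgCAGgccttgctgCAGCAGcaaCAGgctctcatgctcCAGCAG

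The 10 tested bins of exons 1 to 5 had a ratio of mean CPM (counts per 1000000 bin counts) of 1.36 to 2.70, Usp7 cKO over Usp7 WT. Among them, bins of exon 1 (47924401 to 47924426) and exon 5 (47880340 to 47880343, 47880344 to 47880349) reached the mean count of 10 through Usp7 cKO. That minimum favours a high ratio in such bins. The 16 tested bins of exons 6 to 17 had ratios of 1.095 to 1.39. Summed over exons 1 to 5, Foxp4 had 253, 323, 343, 311 and 358 counts in Usp7 cKO and 196, 116, 163, 202 and 168 counts in Usp7 WT, a ratio of mean CPM of 1.96. Over exons 6 to 17 the mean was 69.5 ± 4.80 CPM in Usp7 cKO and 55.98 ± 2.47 CPM in Usp7 WT (SD, n = 5), a ratio of 1.24. The split between exons 5 and 6 was chosen after the values were seen, so it is given with no test. Read density also changed there. Exons 1 to 5 held 32.2 counts per 100 bases in Usp7 cKO and 17.2 in Usp7 WT, while exons 6 to 17 held 108 in Usp7 cKO and 91.0 in Usp7 WT. The bin just upstream of exon 6 (47878755 to 47878953), which belongs to another annotated transcript, held 57.6 counts per 100 bases in Usp7 cKO and 54.1 in Usp7 WT, a ratio of 1.12. A read that spans several bins counts in each of them, so sums over bins are not numbers of fragments. The gene's exon usage call was lost without the library labelled Usp7 WT replicate 2, which had the fewest reads in exons 1 to 5 (adjusted p = 0.0771), and without both libraries of discordant sex (adjusted p = 0.256). The ratio over exons 1 to 5 was then 1.81 and 1.86.

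**Figure D4:**
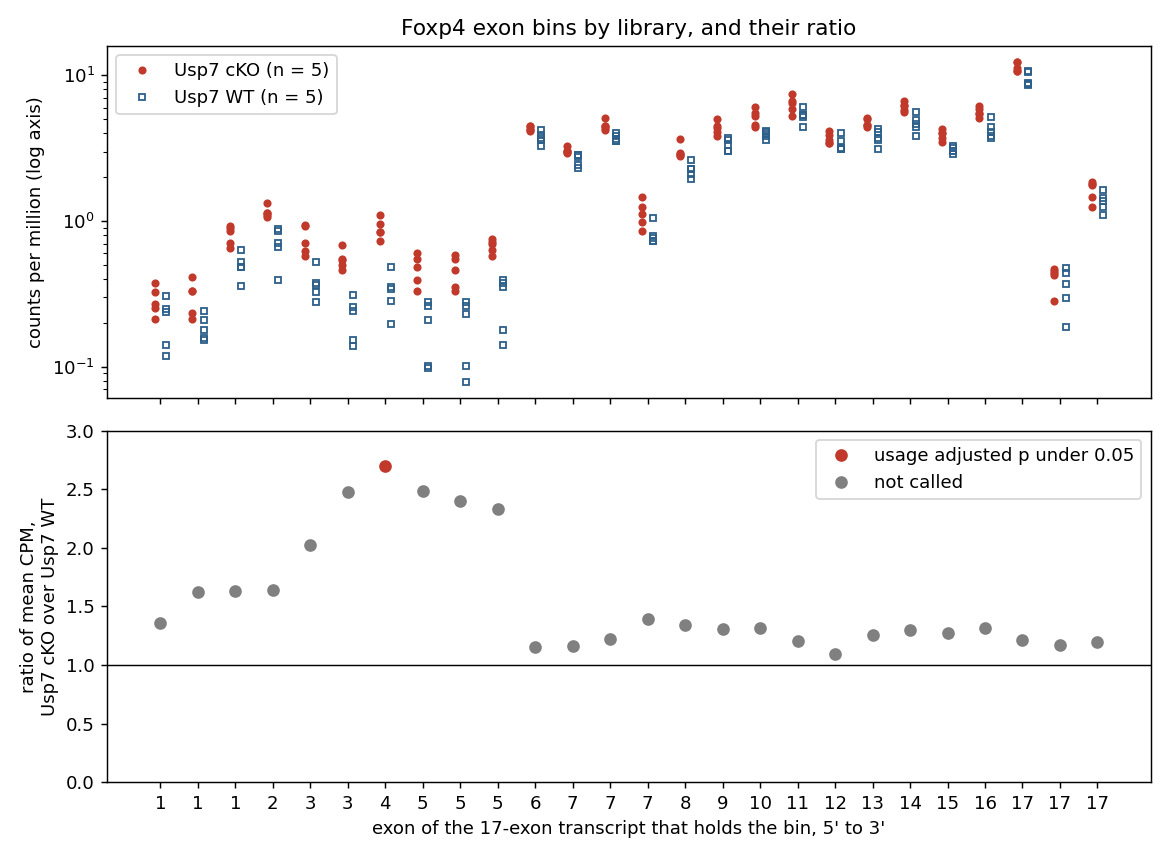
Foxp4 exon bins in the order of transcription, labelled with the exon of the 17-exon transcript that holds them. The upper plot gives CPM by library on a log axis, and the lower plot the ratio of the group means, which runs from 1.36 to 2.70 in exons 1 to 5 and from 1.095 to 1.39 in exons 6 to 17.

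The promoter of the long transcripts lies before exon 1 and is shown for that reason, from RefSeq on GRCm38.p6. It runs from 250 bases before to 50 bases after the start, and capitals mark the CpG dinucleotides, of which it holds 33, against a median of 7 over all 32851 promoters of this length.
Foxp4, chr17:47924583-47924882, minus strand: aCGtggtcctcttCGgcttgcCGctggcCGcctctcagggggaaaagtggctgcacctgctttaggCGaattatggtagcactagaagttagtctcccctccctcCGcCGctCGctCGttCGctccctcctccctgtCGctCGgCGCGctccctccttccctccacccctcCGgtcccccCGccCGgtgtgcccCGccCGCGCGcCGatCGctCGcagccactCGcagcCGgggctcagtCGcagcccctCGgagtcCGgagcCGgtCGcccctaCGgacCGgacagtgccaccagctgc
Of the 39 members 26 matched this table, with 31 windows that hold 3 to 59 CpG dinucleotides and a median of 16. The forkhead motif TGTTTAC, searched on both strands, was found in 1 of the 31 windows (Foxa1, 3.23%) and in 3.65% of all promoters. The E-box CACGTG was found in 1 window (Foxd3), against 7.15% of all promoters. The TATA box TATAAA was found in 3 windows (Foxa2, Foxa3 and Foxp3, 9.68%), against 13.6% of all.

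The other abundant members did not pass the test. Foxk2 and Foxk1 recruit the BAP1 deubiquitinase complex to DNA. Foxk2 held 103 to 114 TPM in Usp7 cKO and 114 to 129 TPM in Usp7 WT (log2 change -0.14, adjusted p = 0.0872), and rescaling, edgeR and DESeq2 called it lower (log2 changes -0.20, -0.18 and -0.19). The glutamatergic markers given above were lower in the same libraries, and their part in the level of Foxk2 was not tested. Foxk1 held 52.3 to 61.8 TPM in Usp7 cKO and 47.5 to 60.6 TPM in Usp7 WT (log2 change 0.071, adjusted p = 0.561). Of 11 markers of GABAergic neurons 0 were higher and 2 lower (median log2 change 0.073), with sums of 1360 to 1493 TPM in Usp7 cKO and 1464 to 1662 TPM in Usp7 WT.

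Of 11 genes for the BAP1 complex and the Sin3 corepressors with which Foxk proteins act, 2 were higher and 0 lower, with a median log2 change of -0.018. Kdm1b, a histone demethylase that binds this complex, averaged 15.6 ± 2.16 TPM in Usp7 cKO and 10.3 ± 0.679 TPM in Usp7 WT (log2 change 0.57, adjusted p = 0.00115). Bap1 averaged 131 ± 5.68 TPM in Usp7 cKO and 113 ± 6.84 TPM in Usp7 WT (log2 change 0.21, adjusted p = 0.0227). Of 5 tested genes for Groucho/TLE corepressors, 0 were higher and 1 was lower, and their median log2 change was -0.016. This was Tle4, also a marker of deep-layer cortical neurons, with 48.7 ± 4.84 TPM in Usp7 cKO and 60.2 ± 5.15 TPM in Usp7 WT (log2 change -0.30, adjusted p = 0.0317).

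Foxp1, which is made in cortical projection neurons and in the striatum, held 53.1, 49.5, 44.3, 48.8 and 51.6 TPM in Usp7 cKO and 44.2, 46.4, 48.9, 45.1 and 54.0 TPM in Usp7 WT. The groups overlapped (log2 change 0.053, SE 0.0699, limma adjusted p = 0.674). Foxj2, Foxj3, Foxn2 and Foxn3, widely made factors of which FOXN3 is known for a role in the DNA damage checkpoint, ranged from 6.77 to 35.9 TPM over both groups. Their log2 changes were 0.0070, 0.063, 0.0062 and 0.16, and none was called (adjusted p = 0.179 for Foxn3). Markers of striatum, thalamus and hippocampus, tissues that a cortical dissection could hold, summed to 394 to 1070 TPM in Usp7 cKO and 375 to 758 TPM in Usp7 WT. Of these 16 markers 4 were higher and 0 lower, with a median log2 change of 0.51, and none was at 0 in all libraries.

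Spliced reads were tested in 12 intron clusters of 5 members, 5 clusters in Foxp1, 2 each in Foxk2, Foxj3 and Foxp4, and 1 in Foxn3. By edgeR 0 of these were called, with 1 at an unadjusted p under 0.05, while 0.22% of all 10441 clusters were called. The largest difference in a mean share within a cluster was 0.119 to 6.23 percentage points. The cluster with the smallest p was in Foxp1 and joins exons upstream of 99016665 on chromosome 6 (Simes p adjusted over all clusters 0.164). Its 27.7 kb intron from 99016665 to 99044326 was spliced in 6, 0, 3, 9 and 1 reads in Usp7 cKO and in 17, 18, 17, 15 and 9 reads in Usp7 WT. The groups touched at 9 reads, and the intron took 1.18 ± 1.12% of the cluster in Usp7 cKO and 5.41 ± 1.67% in Usp7 WT (SD, n = 5). The commonest introns of this cluster ended at 99075854, with 49.8 ± 2.96% in Usp7 cKO and 44.4 ± 7.66% in Usp7 WT, and at 99028164, with 42.3 ± 2.76% in Usp7 cKO and 41.9 ± 6.18% in Usp7 WT.

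The donor at 99028164 lies 134 bases from an internal start site of Foxp1 in RefSeq. The window around that start is shown for this reason, although it ends before the donor. Capitals mark the 44 CpG dinucleotides of the window.
Foxp1, chr6:99028249-99028548, minus strand: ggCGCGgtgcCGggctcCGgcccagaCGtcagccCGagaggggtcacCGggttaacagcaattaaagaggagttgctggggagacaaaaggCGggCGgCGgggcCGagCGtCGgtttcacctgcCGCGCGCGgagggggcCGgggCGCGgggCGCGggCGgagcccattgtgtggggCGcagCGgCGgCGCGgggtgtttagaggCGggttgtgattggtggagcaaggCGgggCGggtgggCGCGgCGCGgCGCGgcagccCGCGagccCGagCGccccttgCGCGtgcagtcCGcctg

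The 6 members known from vessels and meninges were all tested and 0 were called. Foxc1, needed for the meninges and for brain pericytes, held 6.35, 7.097, 8.51, 6.002 and 6.62 TPM in Usp7 cKO and 6.39, 4.36, 4.71, 5.80 and 4.87 TPM in Usp7 WT. Usp7 WT replicate 1 was the only Usp7 WT library that fell within the Usp7 cKO range (limma log2 change 0.38 with SE 0.129, adjusted p = 0.0837), and edgeR called the gene higher (log2 change 0.37, adjusted p = 0.0302). Foxf2, a factor of brain pericytes, held 4.05, 3.15, 5.29, 2.86 and 4.95 TPM in Usp7 cKO and 3.91, 2.91, 2.71, 4.099 and 4.68 TPM in Usp7 WT, in broad overlap (log2 change 0.12, adjusted p = 0.717). Foxq1, known from brain endothelium, held 0.982, 1.68, 1.76, 1.28 and 1.79 TPM in Usp7 cKO and 1.08, 0.685, 0.812, 1.535 and 1.396 TPM in Usp7 WT. The groups overlapped here too (log2 change 0.33, adjusted p = 0.313). Foxc2, Foxd1 and Foxs1 had log2 changes of -0.17, 0.27 and -0.066.

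Marker lists of the cells in which these genes are made were counted beside them. Of 16 endothelial markers 2 were higher and 0 lower (median log2 change 0.041), with sums of 328 to 473 TPM in Usp7 cKO and 299.8 to 409 TPM in Usp7 WT. Of 12 mural markers 1 was higher and 0 lower (median 0.15), with sums of 155 to 209.9 TPM in Usp7 cKO and 143 to 183 TPM in Usp7 WT. Of 14 markers of meningeal fibroblasts 0 were called (median 0.14), with sums of 95.9 to 142 TPM in Usp7 cKO and 87.8 to 131 TPM in Usp7 WT. No marker of these lists was at 0 in all libraries, and the sums overlapped between the groups. The part of such cells in the level of Foxc1 was not tested.

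Foxj1, the master factor of motile cilia, held 8.11, 8.04, 7.87, 9.40 and 9.05 TPM in Usp7 cKO and 6.50, 7.14, 8.08, 8.55 and 11.2 TPM in Usp7 WT. Usp7 WT replicates 1 and 5 bounded all Usp7 cKO values (log2 change 0.052, SE 0.136, limma adjusted p = 0.841). Of 36 genes for motile cilia 33 were tested, 7 were higher and 0 lower, and their median log2 change was 0.27. Over all genes tested 9.22% were called higher. Tekt1, a protein of ciliary microtubules, averaged 6.16 ± 0.872 TPM in Usp7 cKO and 2.94 ± 0.682 TPM in Usp7 WT (log2 change 0.96, adjusted p = 0.00317). Mcidas, a regulator upstream of Foxj1 in multiciliated cells, averaged 1.45 ± 0.399 TPM in Usp7 cKO and 0.446 ± 0.172 TPM in Usp7 WT (log2 change 1.04, adjusted p = 0.00709), and it reached the minimum through Usp7 cKO, which favours such a call. Tppp3, a tubulin-binding protein also made outside ciliated cells, averaged 44.7 TPM in Usp7 cKO and 33.1 TPM in Usp7 WT (log2 change 0.43). Markers of the choroid plexus, whose cells are ciliated, varied widely between libraries of both groups. The 12 markers summed to 30.1 to 456 TPM in Usp7 cKO and 37.1 to 913 TPM in Usp7 WT, and 0 of 9 tested were called (median log2 change -0.055). Foxn4, a factor of retina and spinal cord, was listed at 0 to 0.0701 TPM.

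Foxp3, the defining factor of regulatory T cells, held 1.796, 2.99, 3.15, 1.83 and 2.71 TPM in Usp7 cKO and 2.29, 1.23, 1.79, 1.49 and 1.97 TPM in Usp7 WT. The groups overlapped (log2 change 0.40, SE 0.167, limma adjusted p = 0.145), and by edgeR the log2 change was 0.14 (adjusted p = 0.413). Of 17 T cell genes 6 were tested, 0 were higher and 1 lower, with a median log2 change of -0.17. The lower gene was Lag3, an inhibitory receptor, with 4.24 ± 0.658 TPM in Usp7 cKO and 7.41 ± 1.26 TPM in Usp7 WT (log2 change -0.74, adjusted p = 0.00928).

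Foxh1, the DNA-binding partner of Smad proteins in Nodal signalling, held 0.199, 0.980, 0.651, 0.515 and 1.17 TPM in Usp7 cKO and 0.732, 0.503, 0.883, 0.784 and 0.929 TPM in Usp7 WT. Usp7 cKO replicate 1 was the lowest and replicate 5 the highest of all 10 libraries, so the groups overlapped (log2 change -0.13, SE 0.235, limma adjusted p = 0.771). Other genes of the pathway were counted beside it. Of 19 genes for Nodal ligands, receptors, Smad proteins and targets 11 were tested, 4 were higher and 0 lower, with a median log2 change of 0.23. The share called higher over all genes tested was 9.22%. Lefty2, a secreted Nodal inhibitor that Foxh1 and Nodal induce in the embryo, averaged 30.3 ± 2.85 TPM in Usp7 cKO and 2.31 ± 0.229 TPM in Usp7 WT (log2 change 3.46). Its relative Lefty1 averaged 5.05 ± 1.03 TPM in Usp7 cKO and 0.896 ± 0.465 TPM in Usp7 WT (log2 change 2.03, adjusted p = 4.5e-05). Mesp1, a factor of early mesoderm, averaged 7.44 TPM in Usp7 cKO and 0.153 TPM in Usp7 WT (log2 change 3.59) and reached the minimum through Usp7 cKO. Smad3 was the other called gene.

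Foxl2 and Foxr2, known from the ovary and from tumours, were low. Foxl2 ranged from 0.564 to 1.22 TPM in Usp7 cKO and from 0.368 to 0.844 TPM in Usp7 WT (log2 change 0.36, limma adjusted p = 0.274). Foxr2 ranged from 0.447 to 0.706 TPM in Usp7 cKO and from 0.311 to 0.573 TPM in Usp7 WT (log2 change 0.16, limma adjusted p = 0.605).

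The 16 members below the minimum were compared on TPM with an exact two-sided permutation test, whose smallest p with 5 against 5 libraries is 0.00794. Of these 15 had a value above 0 in some library, and 2 reached that p, Foxb2 and Foxn1. After adjustment over the 16435 genes below the minimum with a value above 0, the p was 0.432 for both. Across protein-coding genes below the minimum, 2.93% had all Usp7 cKO libraries above all Usp7 WT libraries. The mean was higher in Usp7 cKO for 12 of the 15 and lower for 3. The like share over all genes below the minimum was not counted. Some of these directions rest on very few reads. Foxi2, Foxi3 and Foxe3 had 1, 1 and 3 reads in Usp7 cKO and 1 read each in Usp7 WT.

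Foxb2, a factor of the embryonic neural tube, held 0.320, 0.343, 0.552, 0.472 and 0.874 TPM in Usp7 cKO and 0, 0.154, 0.0427, 0 and 0.0947 TPM in Usp7 WT. Its single bin held 3, 4, 6, 6 and 11 reads in Usp7 cKO and 0, 2, 0, 0 and 1 reads in Usp7 WT. The ratio of the summed reads was 10.5 with an exact 95% interval of 3.25 to 53.6, which covers counting error only. With no minimum on levels limma called it higher (log2 change 0.84, adjusted p = 0.0115), in a setting that called 3373 genes. Foxb2, like Foxn1 below, was picked for the separation of these same values. The interval and the limma call are therefore no separate tests of it. Its promoter is shown for comparison with that of Foxp4, from RefSeq on GRCm38.p6, and holds 10 CpG dinucleotides, again in capitals.
Foxb2, chr19:16873781-16874080, minus strand: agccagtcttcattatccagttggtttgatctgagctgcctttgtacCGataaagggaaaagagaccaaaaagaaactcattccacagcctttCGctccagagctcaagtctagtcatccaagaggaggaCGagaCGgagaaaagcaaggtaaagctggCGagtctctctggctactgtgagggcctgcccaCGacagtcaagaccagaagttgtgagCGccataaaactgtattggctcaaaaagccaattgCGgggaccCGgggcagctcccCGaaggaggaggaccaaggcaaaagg
Foxn1, the factor of thymic epithelium that is lost in nude mice, held 0.118 to 0.211 TPM in Usp7 cKO and 0.0178 to 0.0877 TPM in Usp7 WT. That rests on 21 reads in Usp7 cKO and 4 reads in Usp7 WT over all libraries, a ratio of 5.49 with an interval of 1.85 to 22.0. With no minimum on levels its adjusted p was 0.0579.

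Foxd3, which keeps neural crest and pluripotent cells undifferentiated, was listed at 0, 0.0548, 0.0588, 0 and 0 TPM in Usp7 cKO and at 0 in every Usp7 WT library, from 2 reads in all. Of 17 neural crest genes 13 were tested, with a median log2 change of 0.098. Against 9.22% of all genes tested, 3 were higher, and 0 were lower. They were Sox9, a factor that cortical astrocytes also make, with 35.0 ± 3.39 TPM in Usp7 cKO and 27.9 ± 3.07 TPM in Usp7 WT (log2 change 0.32), Twist1 (log2 change 0.80) and Msx2 (log2 change 0.58).

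The FoxA pioneer factors of liver, pancreas and gut were close to the limit of detection. Foxa1, Foxa2 and Foxa3 had 8, 4 and 7 reads over the 5 Usp7 cKO libraries and 3, 3 and 4 reads over the 5 Usp7 WT libraries, too few to show a difference at this depth. Of 15 genes of endoderm and its organs 6 were tested, 1 was higher and 0 lower, with a median log2 change of 0.18. That gene was Onecut1, a factor of liver and of some neurons, with 1.38 ± 0.464 TPM in Usp7 cKO and 0.1003 ± 0.0227 TPM in Usp7 WT (log2 change 1.61), and it reached the minimum through Usp7 cKO. Foxi1, Foxi2 and Foxi3 of ectoderm and acid-secreting cells and Foxe3 of the lens stayed at or below 0.273 TPM in every library. Foxd2, Foxb1 and Foxr1 ranged up to 0.472, 0.114 and 0.09998 TPM, and Foxd4 was listed at 0 in all 10 libraries.

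The sexes were compared with a product of genotype and labelled sex in limma. The change with genotype differed between labelled sexes in 0 of the 23 members (lowest adjusted p = 0.99996) and in 2 of all genes, and 0 members had an unadjusted p under 0.05. The 2 libraries of discordant sex were part of this fit under their labels, which limits what it can show.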

How the data were processed

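Total RNA of mouse cortex was depleted of ribosomal RNA with RNase H and its cDNA was primed by random hexamers (per the labels' protocols). The authors deposited gene levels as TPM, and 287 repeated lines of that table were used 1 time. Exon bin and intron values are raw counts, per the deposited file headers. For each bin the deposited DEXSeq table also holds the authors' log2 change and p-value. Tools named in the submitters' processing notes are STAR 2.7.9a, SAMtools 1.10 and Subread, with GRCm38 as build. Intron counts of Usp7 WT replicate 1 were all even and were divided by 2.

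Gene levels were tested with limma 3.58.1 (R 4.3.3) on log2(TPM + 0.5) where the mean reached 0.5 TPM, with labelled sex as covariate and Benjamini-Hochberg adjustment over all genes at 0.05. For usage of exons and introns, edgeR 4.0.16 (diffSpliceDGE, Simes) took bins from a mean count of 10 and introns from 5. Alternatives used other pseudocounts, filters, scalings, covariates and subsets of libraries, and edgeR or DESeq2 1.42.0 on bin counts. Exact permutation tests ran over 252 regroupings (scipy 1.17.1). The tests were checked on simulated counts and levels. Plots were made with matplotlib 3.10.9. Positions are from GENCODE vM21.

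The members and all lists were chosen with earlier results of these data known. Values in every library are given for members past the threshold and 9 fixed members, and outside the family for Usp7, list genes among the 3 smallest p and neighbours within 100 kb of a called member. Results of some genes that enter the counts are not reported here. Members named beyond that were chosen after their values were seen. TPM keeps no depth. Intervals and limits for counts of 0 cover counting error only. The labels describe pairs matched by litter and sex without naming them, and each library is a separate animal.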

Additional observations from a re-analysis of the deposited data

Results flagged for a closer look

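Of 46 groups of 5 libraries, 1 held a library far from the others, where chance flags about 1 in 20 groups. Foxd1, a factor of stromal and pericyte precursors, was 1.70 TPM in Usp7 cKO replicate 3, against 1.14 to 1.26 TPM in the other Usp7 cKO libraries.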

How the results depend on the processing

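Foxe1 and Foxf1 were called higher in all settings. Without both libraries of discordant sex 2 members were called higher, 0 members were called for exon usage, and 2183 genes were called. Rescaling, edgeR and DESeq2 each called 2 members lower. Over all genes rescaling called 5648, edgeR 6429 and DESeq2 6599, against 3832. In the authors' deposited table of bins, 2 members, Foxp4 and Foxj3, had a bin with an adjusted p under 0.05. These were 4 of the 247 forkhead bins with an adjusted p there, and the share over all its bins was not counted. The edgeR exon usage test did not call Foxj3 (adjusted p = 0.214). Leaving out 1 library gave 4 members higher, 0 lower, 2789 to 3586 genes, 0 to 1 members for exon usage and 0 intron clusters. The log2 change of Foxk1 was -0.014 and that of Foxf2 -0.053 without the discordant libraries, and that of Foxf2 -0.057 with Xist as covariate. Foxp1 was -0.0096 on rescaled values. Foxj1 was -0.0064 (rescaled), -0.011 (edgeR) and -0.016 (DESeq2). Foxj2 was -0.055 (rescaled), -0.042 (edgeR), -0.048 (DESeq2), -0.018 (Xist) and -0.028 (without the discordant libraries). Foxn2 was -0.053 (rescaled), -0.048 (edgeR), -0.054 (DESeq2) and -0.053 (without the discordant libraries). Leaving out 1 library moved Foxh1 between -0.25 and 0.037, Foxj1 between -0.025 and 0.18, Foxj2 between -0.018 and 0.047, and Foxn2 between -0.041 and 0.049. None of these was called in any setting, and the cause of the shifts was not tested.

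With the number that ends each title as a replicate block, 4 members were higher and 0 lower among 3654 called genes, 1 member was called for exon usage and 0 intron clusters. Each number covered the same labelled sexes in both groups, as pairs matched by sex would. Between the groups, libraries with the same number had 9 correlations of -0.22 to 0.17. The 16 other combinations had correlations of -0.28 to 0.17. Group and labelled sex were taken out first, which centres such values near 0, so they cannot show whether the numbers mark pairs. The main fit used no pairs. Members of few reads, such as the FoxA genes, are limited by depth.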
